A study of Mus musculus with 4 samples.

Results

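The genes described here encode RNA exosome and nonsense-mediated decay factors together with the exon junction, Ski and ribosome rescue complexes that act with them. They were taken by gene symbol from a list of 32 names, and all 32 were present among the 54920 genes counted. All 32 also passed the filter on low counts that left 23952 genes for testing. RNA was sequenced from ID4-EGFP+ spermatogonia sorted from neonatal mouse testis at P8, with 2 control and 2 *Cnot3*-cKO libraries. In the methods of the study, controls were *Cnot3* flox/flox; *Id4-eGfp* mice, which the labels call wild-type. *Cnot3*-cKO mice carried the same floxed alleles and reporter together with *Ddx4*-creER, a tamoxifen-inducible Cre driven from a germ cell promoter. Mice of both groups received 4OHT injections from P1 to P3, so floxed alleles, reporter and drug were shared and Cre was not. The labels do not say whether a library came from 1 mouse or from pooled mice, and the p-values therefore measure the spread between these libraries.

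The RNA exosome degrades RNA from the 3′ end. A ring of catalytically inert barrel and cap subunits threads the RNA toward DIS3, while EXOSC10 acts on the nuclear form of the complex. In the cytoplasm the Ski helicase complex feeds mRNA into the exosome, and PELO with HBS1L releases ribosomes stalled on damaged mRNA. Nonsense-mediated decay (NMD) removes mRNA on which translation ends too early. The kinase SMG1 phosphorylates the helicase UPF1, UPF2 and UPF3 proteins bridge UPF1 to exon junction complexes left by splicing, and SMG5 and SMG6 start the degradation. CNOT3 is a subunit of CCR4-NOT, the deadenylase that shortens poly(A) tails before the mRNA body is degraded. The comparison asked how transcripts for these downstream and parallel decay machines stood in ID4-EGFP+ cells sorted from *Cnot3*-cKO testis.

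Sequencing depth was 40957899 and 43378493 reads for controls against 22192964 and 28019626 reads for *Cnot3*-cKO. *Cnot3* itself had 2362 and 2114 reads in controls against 435 and 571 in *Cnot3*-cKO, a log2 fold change of -1.48 (adjusted p = 1.48e-05). Germ cell markers were well counted in every library, with a summed level over 12 genes of 6839 and 7235 CPM (reads scaled to the same library total) in controls and 6117 and 6351 CPM in *Cnot3*-cKO. Of these 12, 1 rose and 4 fell at an adjusted p under 0.05, and 7 were below both controls in both *Cnot3*-cKO libraries. Of 11 markers of undifferentiated spermatogonia, 5 rose and 1 fell at an adjusted p under 0.05. Markers of testicular somatic cells moved with the groups, with 14 of 16 Sertoli cell, 5 of 5 tested Leydig cell, 8 of 9 macrophage, 1 of 6 peritubular myoid cell and 2 of 4 tested endothelial cell markers higher at an adjusted p under 0.05 and 0 lower. The sum of 16 Sertoli cell markers was 511 CPM in each control and 1509 and 1501 CPM in *Cnot3*-cKO, that of 6 Leydig cell markers was 322 to 368 against 831 to 896 CPM, and that of 9 macrophage markers was 170 to 266 against 473 to 579 CPM. Among the Leydig cell markers, *Insl3* had 0 reads in every library, with 3 reads taken as the limit that a count of 0 allows. Sums for peritubular myoid cells were 13.9 to 16.5 against 20.4 to 25.7 CPM, and those for endothelial cells were 21.0 to 23.4 against 35.0 to 39.7 CPM. The part of these cells in the values below was not tested, and in bulk RNA fewer cells of a type and less RNA per cell cannot be told apart.

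As a group these transcripts moved little. At the thresholds of the study, an adjusted p under 0.01 with a fold change above 2, 0 of 32 were higher and 0 of 32 were lower in *Cnot3*-cKO by edgeR's quasi-likelihood test. Among all tested genes 4.03% were higher and 0.735% were lower by this rule. At an unadjusted p under 0.05 there were 10 (31.2%), beside 32.8% of all tested genes, and DESeq2 also gave 0 and 0 at the thresholds of the study. Leaving out control replicate 1 or *Cnot3*-cKO replicate 1 brought *Upf3b* past them, for a count of 1 higher. Counting every change at an adjusted p under 0.05 regardless of its size, 4 transcripts rose (*Upf3b*, *Dis3*, *Eif4a3* and *Exosc10*) and 1 fell (*Smg1*), beside 11.1% of all tested genes higher and 9.46% lower. The 5 of 32 (15.6%) compare with 20.6% of all tested genes called in either direction. DESeq2 called 4 higher and 4 lower, adding *Upf2*, *Exosc5* and *Hbs1l* to *Smg1*, and these 8 of 32 (25%) compare with 23.3% of 20098 genes. Because abundant genes are called more often, the share was also taken among well-counted genes, those with an average log2 CPM no lower than 4, where 5 of 29 (17.2%) of these transcripts and 33.1% of 8977 genes were called. For 8 transcripts (25%) the *Cnot3*-cKO values were both above the higher control, and for 11 (34.4%) both were below the lower control, while the same orders were seen in 30.5% and 28.6% of all tested genes.

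The median log2 fold change of the 32 was -0.04, beside 0.01 for all tested genes, and the values ran from -0.46 for *Smg1* to 0.87 for *Upf3b*. There were 14 positive and 18 negative values, and 21 were under 0.2 in size. For 29 transcripts the 95% interval of the fold change lay within a 2-fold change in either direction. The intervals of *Upf3b*, *Dis3l* and *Pelo* reached past 2-fold. In all, 30 of 32 had over 300 reads in every library, and the lowest count was 58 reads, for *Pelo*. Summed over all 32, levels were 4079 and 4034 CPM in controls and 3961 and 3873 CPM in *Cnot3*-cKO.

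**Figure D1:**
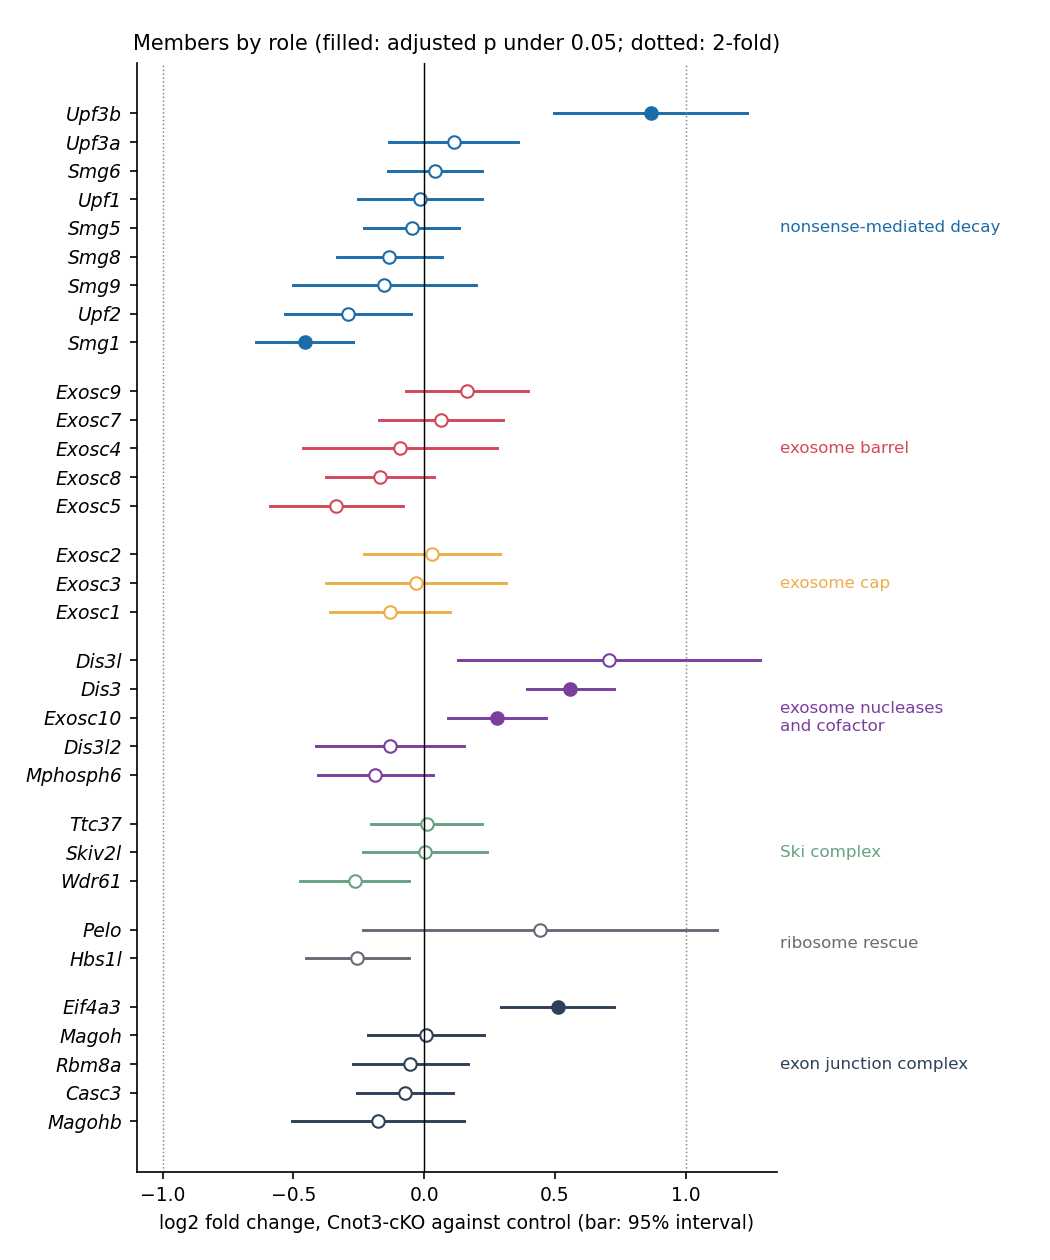
Log2 fold change of each transcript (x axis, *Cnot3*-cKO against control) grouped by the complex its protein belongs to, with 95% intervals from the fit across all genes as bars and filled points at an adjusted p under 0.05. The filled points are *Upf3b*, *Dis3*, *Exosc10* and *Eif4a3* to the right of 0 and *Smg1* to the left, and the barrel, cap and Ski complex points are all open, with *Exosc5* at -0.34 the lowest of them.

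All 4 transcripts that rose held the same letters in a promoter window. The search followed the sight of these values, so the presence of the letters in all 4 is not a test of a link with the rise. The letters TCGCGAGA, an 8-base match to a palindromic element known from many housekeeping promoters, were looked for on either strand from 250 bases before to 50 bases after the annotated start, after the values had been seen. The windows of *Dis3*, *Upf3b*, *Exosc10* and *Eif4a3* are shown in full because each holds these letters, in capitals, and a run of TCTCGCGAGA holds the letters on both strands in overlapping matches. Sequences are from RefSeq on GRCm38.p6, 5′ to 3′ on the strand of the gene, and cover chr14:99099721-99100020 (minus strand) for *Dis3*, chrX:37110273-37110572 (minus strand) for *Upf3b*, chr4:148558169-148558468 (plus strand) for *Exosc10* and chr11:119299994-119300293 (minus strand) for *Eif4a3*.
Dis3: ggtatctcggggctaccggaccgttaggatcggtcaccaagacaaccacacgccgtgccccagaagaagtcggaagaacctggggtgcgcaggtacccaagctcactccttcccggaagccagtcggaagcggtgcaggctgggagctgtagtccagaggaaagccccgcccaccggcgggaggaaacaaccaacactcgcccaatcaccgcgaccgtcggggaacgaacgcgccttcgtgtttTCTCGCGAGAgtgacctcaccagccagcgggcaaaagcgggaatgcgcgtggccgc
Upf3b: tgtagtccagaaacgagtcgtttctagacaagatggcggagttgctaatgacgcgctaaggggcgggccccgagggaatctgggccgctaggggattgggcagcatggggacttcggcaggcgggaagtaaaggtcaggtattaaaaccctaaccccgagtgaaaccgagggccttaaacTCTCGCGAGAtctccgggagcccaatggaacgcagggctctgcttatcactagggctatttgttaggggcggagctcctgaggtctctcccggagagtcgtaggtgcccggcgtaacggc
Exosc10: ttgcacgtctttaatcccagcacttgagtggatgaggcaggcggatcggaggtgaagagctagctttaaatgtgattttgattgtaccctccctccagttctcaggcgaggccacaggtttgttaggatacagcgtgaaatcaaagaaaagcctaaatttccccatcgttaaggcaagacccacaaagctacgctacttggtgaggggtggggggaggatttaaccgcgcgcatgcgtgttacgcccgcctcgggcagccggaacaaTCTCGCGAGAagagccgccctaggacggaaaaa
Eif4a3: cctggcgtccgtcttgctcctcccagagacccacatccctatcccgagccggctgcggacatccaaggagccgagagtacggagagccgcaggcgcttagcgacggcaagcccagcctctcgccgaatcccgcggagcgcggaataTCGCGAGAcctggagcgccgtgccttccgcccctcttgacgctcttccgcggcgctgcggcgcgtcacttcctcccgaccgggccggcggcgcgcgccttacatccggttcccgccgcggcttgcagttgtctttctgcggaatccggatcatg

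The match began 6 bases before the start of *Dis3*, 70 bases before that of *Upf3b* and 104 bases before that of *Eif4a3*. In *Exosc10* it began at base 18, with the start counted as the first base. A window was matched for 26 of 32 genes (81.2%), with *Exosc4*, *Exosc9*, *Skiv2l*, *Wdr61*, *Casc3* and *Rbm8a* not matched. *Exosc10* had 2 windows, and the letters were absent from the window not shown. A gene was counted as holding the letters if any of its windows did. The letters were present in 5 of the 26 genes (19.2%), the 4 shown and *Smg5*, whose log2 fold change was -0.05. They were absent from the window of *Smg1* and were found in 1 of 21 windows (4.76%) of transcripts that did not pass the test. For comparison, 3.46% of windows held them among 6795 well-counted protein-coding genes, and 1.13% among all 27025 genes with a window. Among the well-counted genes they were in 3.03% of 826 windows of higher genes, 3.68% of 1439 windows of lower genes and 3.47% of 4530 windows of the rest. Windows were matched for 78.9% of the higher genes, and for 77.8% of the listed transcripts that did not pass the test, both under the 80% set for such a check, so comparisons with either share are void. These shares are descriptions, with no test, and a match in letters is not a site shown to be bound.

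Among the 9 NMD factors, *Upf3b* rose, *Smg1* fell and the others did not pass the test. These 2 of 9 (22.2%) compare with 20.6% of all tested genes and 33.1% of 8977 well-counted genes called. *Upf3b*, which encodes the X-linked adaptor between UPF2 and the exon junction complex, had 23.1 and 17.4 CPM in controls and 32.0 and 41.7 CPM in *Cnot3*-cKO. Both *Cnot3*-cKO libraries were above both controls, with wide spread within each group. The rise was 0.87 ± 0.17 (SE) on the log2 scale, or 82.4%, with an adjusted p of 0.0036, and its 95% interval ran from 0.50 to 1.24. It rested on 930 and 732 reads in controls against 725 and 1195 reads.

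*Upf3a*, its autosomal paralog, had 37.4 and 37.7 CPM in controls and 40.5 and 40.8 CPM in *Cnot3*-cKO. The replicates were close and the groups did not overlap, but the log2 fold change of 0.11 ± 0.11 (SE) did not pass the test (adjusted p = 0.551). On the scale of reads per kilobase of exon, the ratio of *Upf3a* to *Upf3b* was 1.10 and 1.48 in controls and 0.862 and 0.666 in *Cnot3*-cKO. *Upf3a* was thus the more abundant of the pair in both controls by this length and the less abundant in both *Cnot3*-cKO libraries. When the length of the annotated mRNA was used in place of all exons, the ratio stayed above 1 in all 4 libraries (1.85 and 2.47 against 1.44 and 1.11), so the size order of the pair depended on the length chosen while the direction of its shift did not. The coding sequences are 67.1% identical and share no run longer than 15 bases.

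*Smg1*, the kinase of the pathway, was the single transcript of the list lower at an adjusted p under 0.05. It had 1197 and 1021 CPM in controls and 830 and 786 CPM in *Cnot3*-cKO. The lower control lay well above the higher *Cnot3*-cKO library. The fall was -0.46 ± 0.09 (SE) on the log2 scale (adjusted p = 0.0027), a change of -27.1%. With libraries scaled on pan-germ cell genes in place of all genes, it was -0.31 (adjusted p = 0.0547). The genes of that scaling were the 12 germ cell markers given above, of which 4 fell and 1 rose, so they are not an unchanged reference. *Smg8* and *Smg9*, which encode the proteins bound to the kinase, had log2 fold changes of -0.13 and -0.15, and neither passed the test.

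*Upf1*, the central helicase, had 181 and 234 CPM in controls and 206 CPM in each *Cnot3*-cKO library. The *Cnot3*-cKO values lay between the controls, and the log2 fold change was -0.02 with a 95% interval from -0.25 to 0.22. *Upf2*, which links UPF1 to UPF3 proteins, had 193 and 151 CPM in controls against 145 and 136 CPM. All values in *Cnot3*-cKO were lower, but the log2 fold change of -0.29 ± 0.11 (SE) missed the threshold with an adjusted p of 0.0844. *Smg5*, an adaptor that brings in decapping and deadenylation, and *Smg6*, the endonuclease of the pathway, overlapped between groups. *Smg5* had 210 and 226 CPM against 206 and 216 CPM, and *Smg6* had 189 and 183 CPM against 198 and 185 CPM.

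**Figure D2:**
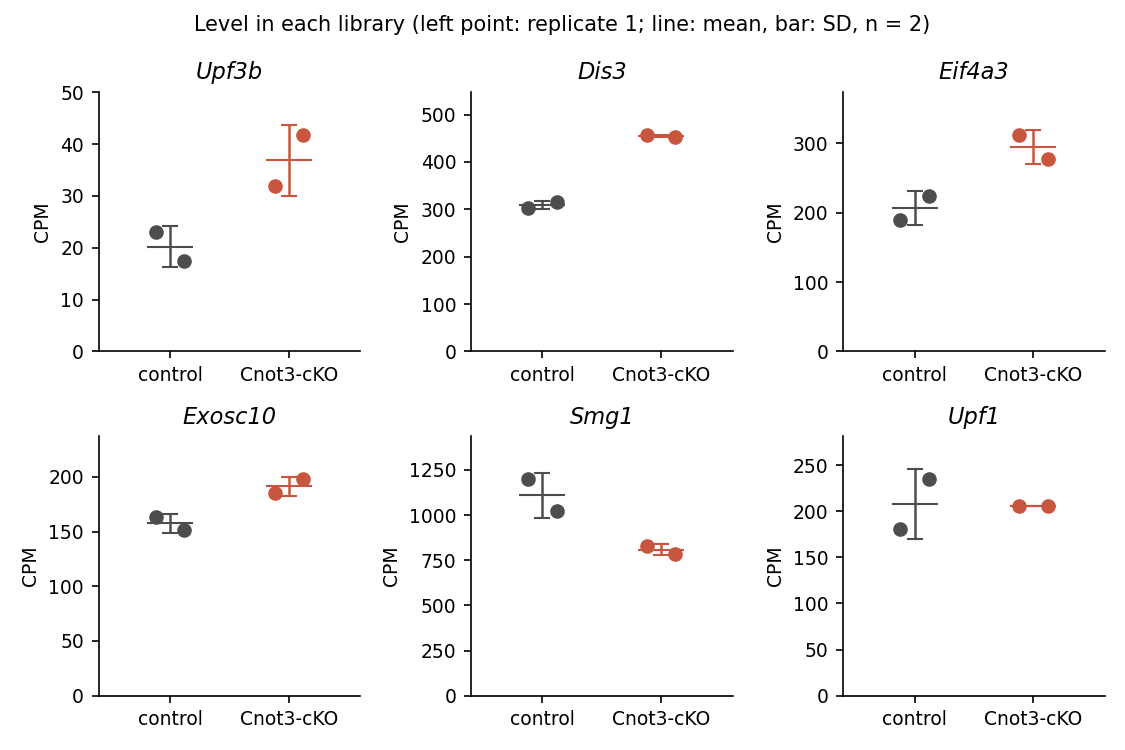
Level in each library (y axis, CPM) for the 5 transcripts that passed an adjusted p of 0.05 and for *Upf1*, with controls in grey and *Cnot3*-cKO in red, the mean as a line and the SD as a bar (n = 2). *Dis3* separates by far more than its spread (303 and 315 against 456 and 453 CPM), whereas the *Upf1* values of both *Cnot3*-cKO libraries fall between the controls.

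Among exosome genes, transcripts for the nucleases DIS3 and EXOSC10 rose, the latter in a call that depended on single libraries. They were 2 of 5 nuclease and cofactor transcripts (40%), beside 20.6% of all tested genes and 33.1% of 8977 well-counted genes called. Those for the structural ring did not pass the test, and their difference from the nuclease transcripts was not tested. *Dis3*, the main catalytic subunit, had 303 and 315 CPM in controls and 456 and 453 CPM in *Cnot3*-cKO. Replicates differed by far less than the groups. The rise was 0.56 ± 0.08 (SE) on the log2 scale, or 47.3%, with an adjusted p of 0.000355, the smallest of the 32.

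*Dis3* shares its promoter region with *Pibf1*, which lies on the opposite strand with a start 346 bases away, so that 325 exonic bases (4.19% of the *Dis3* exons) belong to both genes. *Pibf1*, a centrosomal protein gene, had 67.5 and 73.9 CPM in controls and 109 and 115 CPM in *Cnot3*-cKO, a log2 fold change of 0.66 (adjusted p = 0.000499). Both genes of this head-to-head pair therefore rose. The strand setting of the read counting is not given in the sources used here, and the part of shared reads in either value was not tested.

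*Exosc10*, the nuclear exonuclease, had 164 and 152 CPM in controls and 185 and 198 CPM in *Cnot3*-cKO. The groups did not overlap, and the rise was 0.28 ± 0.09 (SE) on the log2 scale or 21.4% (adjusted p = 0.0372). This call depended on single libraries: the adjusted p was 0.0732 without control replicate 2, 0.130 when the *Cnot3*-cKO library of replicate 1 was left out and 0.317 when that of replicate 2 was. The ratio of *Exosc10* to *Dis3* per kilobase of exon was 1.17 and 1.04 in controls and 0.875 and 0.941 in *Cnot3*-cKO. By mRNA length it was 0.998 and 0.889 against 0.748 and 0.805, so that *Exosc10* did not exceed *Dis3* in any library. *Mphosph6*, which encodes a small nuclear exosome cofactor, had 64.7 and 63.5 CPM against 55.7 and 56.9 CPM (log2 fold change -0.19, adjusted p = 0.229).

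The relatives of *Dis3* with cytoplasmic proteins did not pass the test. *Dis3l*, which encodes the cytoplasmic exosome nuclease, had 3.23 and 4.47 CPM in controls and 7.28 and 5.34 CPM in *Cnot3*-cKO, from 130 to 188 reads a library. Its log2 fold change of 0.71 ± 0.27 (SE) was the next after that of *Upf3b*, but with an adjusted p of 0.0806 it did not pass. *Dis3l2*, an exosome-independent nuclease of uridylated RNA, had 33.3 and 31.7 CPM against 27.6 and 31.7 CPM. Per kilobase of exon, *Dis3* stood at 10.5 and 11.4 times *Dis3l2* in controls and at 19.0 and 16.4 times in *Cnot3*-cKO. By mRNA length these ratios were 5.58 and 6.07 against 10.1 and 8.74. The ratio of *Dis3* to *Dis3l* overlapped between groups, with 66.1 and 49.5 in controls and 44.1 and 59.7 in *Cnot3*-cKO.

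The 5 barrel and 3 cap subunits hold the ring together and guide RNA into it. Their transcripts gave 0 calls at an adjusted p under 0.05 by edgeR, beside 20.6% of all tested genes. At an unadjusted p under 0.05 there was 1 (*Exosc5*), which DESeq2 called. Summed barrel levels were 259 and 266 CPM in controls and 254 and 243 CPM in *Cnot3*-cKO, and summed cap levels were 130 and 135 CPM against 129 and 126 CPM. *Exosc5* came nearest to a call, with 41.2 and 44.6 CPM against 33.3 and 34.7 CPM (log2 fold change -0.34 ± 0.12 SE, adjusted p = 0.0626). The other barrel transcripts lay between -0.17 for *Exosc8* and 0.16 for *Exosc9*, with *Exosc4* at -0.09 and *Exosc7* at 0.06. *Exosc9* overlaps the cyclin gene *Ccna2* on the opposite strand over 510 exonic bases (10.8% of its exons), and *Ccna2* rose by 0.42 (adjusted p = 0.00635). *Exosc4* shares 19.8% of its exonic bases with *Oplah* on the opposite strand. The cap transcripts *Exosc1*, *Exosc2* and *Exosc3* had log2 fold changes of -0.13, 0.03 and -0.03.

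The remaining barrel gene, *Exosc6*, is not on the list and could not be read: it had 0 reads in each library, where 3 reads is the limit that a count of 0 allows. All 1326 of its exonic bases are shared with an exon of *Aars* on the same strand, a gene with 6962 to 9370 reads. This listing therefore says nothing about the level of *Exosc6*.

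The Ski complex and the ribosome rescue pair gave 0 calls by edgeR, beside 20.6% of all tested genes. At an unadjusted p under 0.05 there were 2 transcripts (*Wdr61* and *Hbs1l*), of which DESeq2 called *Hbs1l*. *Skiv2l*, the helicase, had 83.4 and 102 CPM in controls against 95.3 and 90.7 CPM, and *Ttc37*, the scaffold, had 113 and 97.6 CPM against 104 and 108 CPM. Both overlapped between groups. *Wdr61*, the third subunit, which also serves in the PAF transcription complex, had 141 and 165 CPM against 129 and 126 CPM (log2 fold change -0.27 ± 0.10 SE, adjusted p = 0.0698). It shares 33.9% of its exonic bases with *Dnaja4* on the opposite strand, a gene of 3.97 to 4.15 CPM in controls and 6.49 to 7.65 CPM in *Cnot3*-cKO.

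*Hbs1l*, the GTPase that loads PELO on stalled ribosomes, had 103 and 106 CPM in controls and 90.4 and 85.4 CPM in *Cnot3*-cKO. The groups did not overlap, and the log2 fold change of -0.25 ± 0.09 (SE) missed the threshold (adjusted p = 0.0682). *Pelo* had only 2.06 and 2.38 CPM against 2.56 and 3.46 CPM, with a 95% interval of its log2 fold change from -0.23 to 1.12. *Pelo* lies inside *Itga1* on the same strand and shares 46.2% of its exonic bases with *Gm49395*, and how reads in shared bases were assigned is not given in the sources used here.

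In the exon junction complex the helicase core rose and its partners did not pass the test. This was 1 of 5 transcripts (20%), beside 20.6% of all tested genes and 33.1% of 8977 well-counted genes called. *Eif4a3*, the RNA-clamping helicase, had 189 and 224 CPM in controls and 312 and 278 CPM in *Cnot3*-cKO. The lower *Cnot3*-cKO library stood above the higher control, and the rise was 0.51 ± 0.10 (SE) on the log2 scale or 42.5% (adjusted p = 0.0033). *Eif4a3* has intronless copies in the genome, *Eif4a3l1* and *Eif4a3l2*, whose annotated transcripts are 96% and 96.7% identical to it and share runs of up to 119 and 151 bases. Reads assigned to the copies came to 1.44% to 2.64% and 6.3% to 7.27% of those of *Eif4a3*. The sum of the 3 genes was 205 and 245 CPM in controls and 337 and 302 CPM in *Cnot3*-cKO, a ratio of means of 1.42, beside 1.43 for *Eif4a3* alone. Reads that match several of these genes may be missing from the sum, since their treatment is not given in the sources used here.

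*Rbm8a*, which encodes Y14, had 73.0 and 77.2 CPM in controls and 76.1 and 68.9 CPM in *Cnot3*-cKO. Its copy *Rbm8a2*, identical over 97.8% of 713 aligned bases, had 23.6% to 26.4% as many assigned reads. How reads that match both were treated is not given in the sources used here, so the level of *Rbm8a* is uncertain by an unknown amount. *Casc3*, the peripheral core subunit, had 152 and 161 CPM against 149 CPM in each *Cnot3*-cKO library. The log2 fold changes were -0.05 for *Rbm8a* and -0.07 for *Casc3*, and their differences from *Eif4a3* were not tested.

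MAGOH, the partner of Y14, is encoded by *Magoh*, which has a paralog, *Magohb*. The last 60 coding bases of each are shown because they differ at 11 positions, in capitals, and because such differences let reads be told apart. The sequences are from GENCODE M21 transcripts on GRCm38, 5′ to 3′.
Magoh: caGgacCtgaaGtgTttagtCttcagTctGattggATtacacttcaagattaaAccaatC
Magohb: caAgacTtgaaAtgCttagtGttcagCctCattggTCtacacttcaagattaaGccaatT

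Over the whole coding sequence the genes are identical at 356 of 438 aligned positions (81.3%), and the longest shared run is 17 bases. *Magoh* had 99.8 and 113 CPM in controls and 100 and 114 CPM in *Cnot3*-cKO, with a log2 fold change of 0.01 and a 95% interval from -0.21 to 0.23. *Magohb* had 18.6 and 21.4 CPM against 17.4 and 17.9 CPM (log2 fold change -0.18, adjusted p = 0.474). Per kilobase of exon, the ratio of *Magoh* to *Magohb* averaged 11.9 in controls and 13.5 in *Cnot3*-cKO. Per kilobase of annotated mRNA, *Magoh* stood at 5.94 and 5.85 times *Magohb* in controls and at 6.36 and 7.02 times in *Cnot3*-cKO, and was thus the main transcript of the pair in every library. *Magohb* shares 30.2% of its exonic bases with the pseudogene *Gm44958*, which had 5 to 19 reads.

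Levels were compared between genes only per length. In CPM per kilobase of exon (RPKM), computed on the union of annotated exons, *Magoh* was the most abundant in controls at 130 and 147, followed by *Eif4a3* at 89.0 and 106. *Smg1*, *Upf1*, *Exosc10* and *Dis3* followed with means from 46.2 to 39.8, where the values of neighbours overlapped except between *Exosc10* and *Dis3*. *Pelo* at 1.39 ± 0.14 (SD, n = 2) and *Dis3l* at 0.705 ± 0.161 (SD, n = 2) were the lowest. With the length of the annotated mRNA, a choice made after seeing the data, *Magoh* and *Eif4a3* stayed the highest at 154 and 137 CPM per kilobase. *Wdr61* moved from place 8 to place 3 and *Exosc8* from place 13 to place 4, since most of their annotated exon length lies outside that mRNA.

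**Figure D3:**
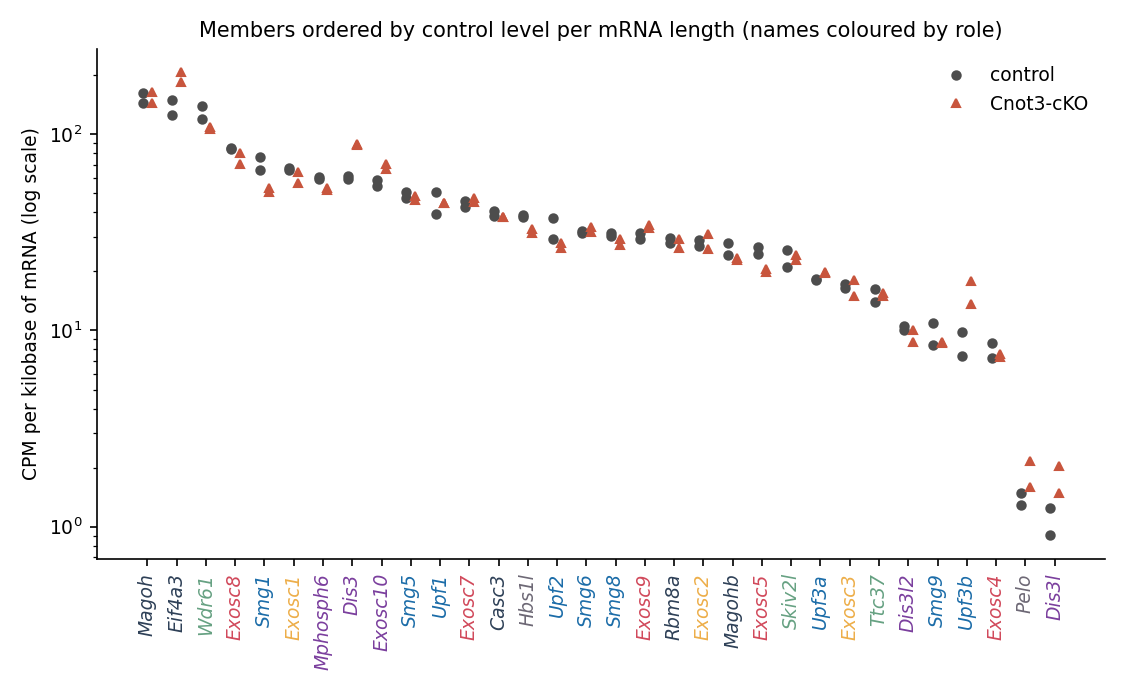
Level per kilobase of annotated mRNA (y axis, CPM per kilobase, log scale) for each transcript in each library, ordered by the control mean, with names coloured by complex as in the plot of fold changes. The order runs from *Magoh* at 154 to *Dis3l* at 1.08 CPM per kilobase in controls, and *Upf3b* and *Dis3* show *Cnot3*-cKO points clear of the control points.

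Because CCR4-NOT is brought to many mRNAs by proteins bound to the 3′UTR, the annotated 3′UTRs were searched for the Pumilio letters TGTANATA and the AU-rich letters TTATTTATT on the mRNA strand. Pumilio letters were present in 7 of 32 transcripts (21.9%), beside 23.3% of 15685 tested genes, whose 3′UTRs were longer (median 926 against 478.5 bases). AU-rich letters were in 0 of 32, beside 7.02% of tested genes. Of the 5 transcripts that changed, *Dis3* and *Eif4a3* held a Pumilio match, shown here with 10 bases on either side and the match in capitals, from GENCODE M21 transcripts.
Dis3: cccaggtattTGTAGATAtagctacagg
Eif4a3: ctaatgcacaTGTACATAatccgatgct

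Such a match was present in 35.9% of tested genes with a 3′UTR within 20% of the length of that of *Dis3* (2176 bases) and in 6.35% of those near that of *Eif4a3* (180 bases). The other transcripts with a match were *Exosc7*, *Exosc1*, *Mphosph6*, *Wdr61* and *Magohb*, none of which passed the test. *Upf3b*, *Exosc10* and *Smg1* held no match in these 3′UTRs.

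**Figure D4:**
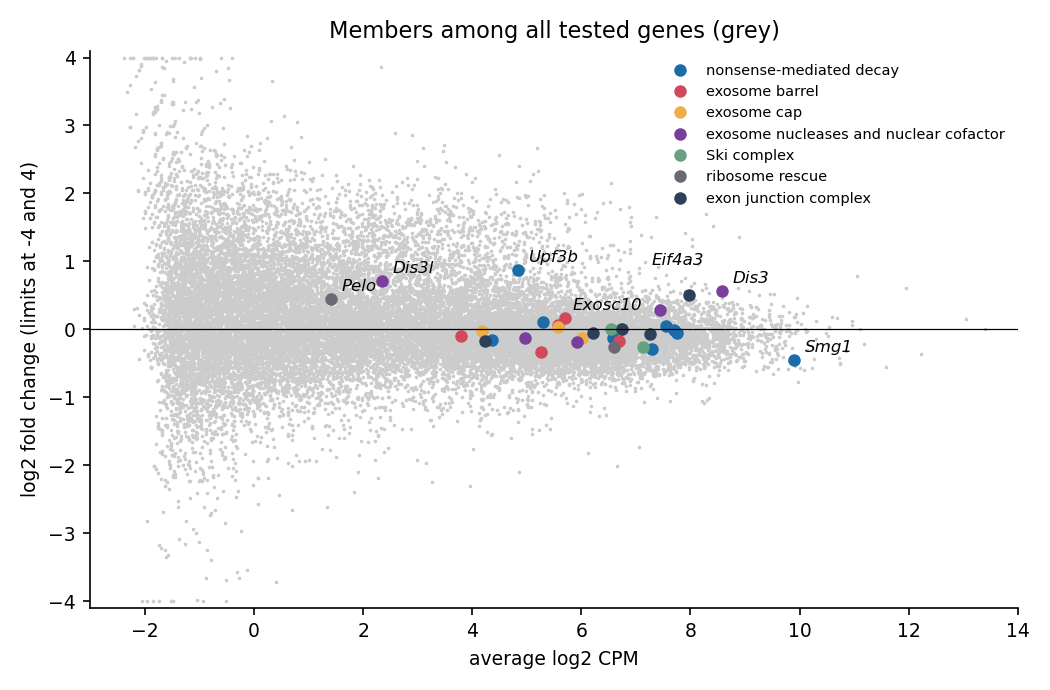
Average log2 CPM (x axis) against log2 fold change (y axis) for all 23952 tested genes in grey, with values past 4 drawn at the limit, and for the 32 transcripts in colour by complex. The transcripts lie mostly at an average log2 CPM above 4 and within a band between -0.46 and 0.87.

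Among other genes of the same pathways, calls came about as often as among all tested genes. Of 54 partners, 53 were tested. At an adjusted p under 0.05, 3 were higher and 7 lower, beside 11.1% of all tested genes higher and 9.46% lower. These 10 (18.9%) compare with 20.6% of all tested genes called in either direction, and with a larger share, 33.1%, of 8977 well-counted genes. The count ranged from 4 to 17 when single libraries were left out. Their median log2 fold change was -0.07, and values ran from -0.66 to 0.49. Of 15 nuclear adaptors, which feed RNA to the nuclear exosome, 4 (26.7%) fell and 0 rose, beside 9.46% of all tested genes lower. The other 11 did not pass the test, and over the 15 there were 9 positive and 6 negative values with a median of 0.01. Falls were more common among well-counted protein-coding genes, where 1793 of 8408 were lower and 1047 higher. Direction also followed the scaling, with 3599 of all tested genes higher and 1012 lower by pan-germ cell scaling. *Ncbp2* and *Ncbp1*, the nuclear cap-binding pair, fell by 0.63 and 0.25 on the log2 scale (adjusted p = 0.000661 and 0.047). *Mtrex*, the helicase that threads nuclear RNA into the exosome, fell by 0.25 (adjusted p = 0.0413), and *Tent4b*, the poly(A) polymerase of the TRAMP-like complex, fell by 0.33 (adjusted p = 0.0177).

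*Mtrex* levels were 338 and 326 CPM in controls and 287 and 270 CPM in *Cnot3*-cKO, and those of *Ncbp2* were 127 and 116 CPM against 77.0 and 80.6 CPM. The nuclear exonuclease transcript *Exosc10* thus rose in the same libraries in which transcripts for its helicase *Mtrex* fell. Both calls were close to the threshold, that of *Exosc10* depended on single libraries, and the contrast was not tested. Among factors close to NMD, *Mov10*, an RNA helicase that binds UPF1, fell by 0.66 (adjusted p = 0.000252) and *Nbas* fell by 0.62 (adjusted p = 0.000838). *Ruvbl1*, an ATPase of the kinase assembly machinery, and *Etf1*, the release factor eRF1, rose by 0.49 and 0.40 (adjusted p = 0.00474 and 0.00329). *Ascc3*, a helicase that splits collided ribosomes, fell by 0.26 (adjusted p = 0.0433), the only call among 11 ribosome quality control transcripts. *Bclaf1* rose by 0.22 (adjusted p = 0.0498).

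Transcripts often used to read NMD activity gave no common direction. Of 20, 2 rose and 1 fell (15%), beside 11.1% of all tested genes higher, 9.46% lower and 20.6% in either direction. The median log2 fold change of the 20 was 0.08, with 11 positive and 9 negative values. *Atf4*, the stress transcription factor whose mRNA carries upstream reading frames, had 87.3 and 93.2 CPM in controls and 112 and 117 CPM in *Cnot3*-cKO, a rise of 0.35 (adjusted p = 0.0175). *Atf3* rose by 1.24 (adjusted p = 0.0346) from a low level of 1.29 and 1.05 CPM to 2.12 and 3.39 CPM. *Tbl2* fell by 0.58 (adjusted p = 0.0018). The 8 small nucleolar RNA host transcripts lay between -0.21 for *Snhg1* and 0.28 for *Snhg5*, with adjusted p-values above the threshold. Transcript levels do not measure the activity of the pathway.

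**Figure D5:**
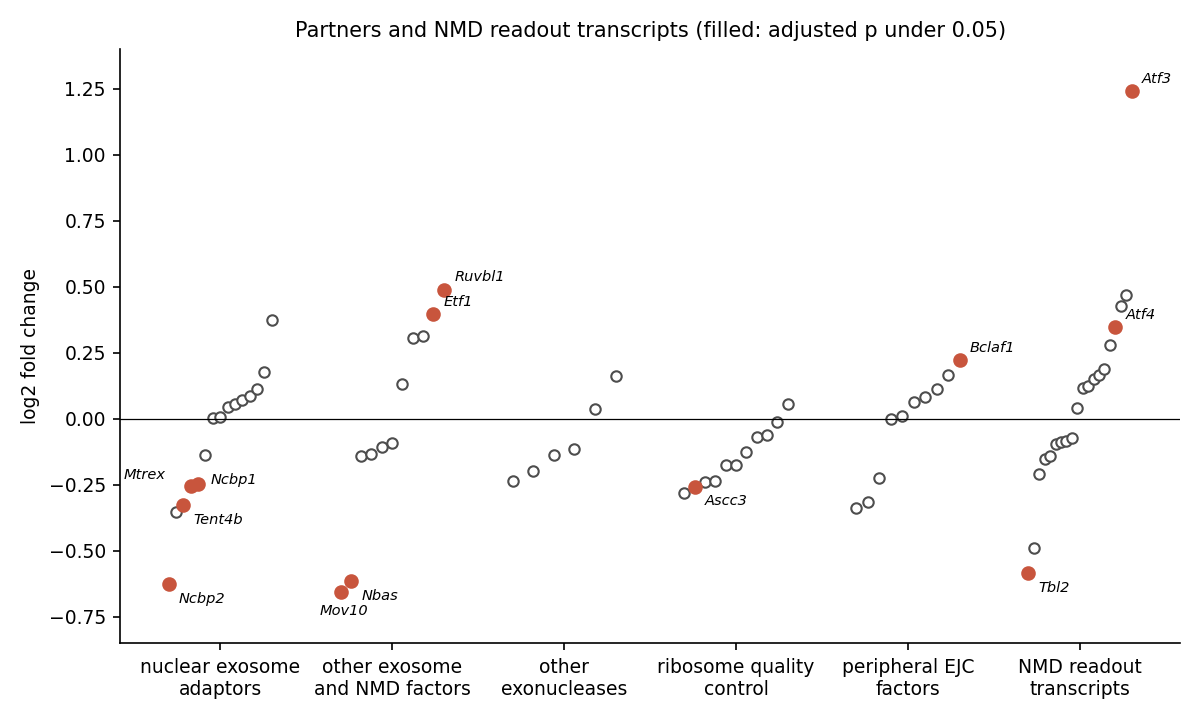
Log2 fold change (y axis, *Cnot3*-cKO against control) of the 53 tested pathway partners and 20 NMD readout transcripts by group (x axis; EJC, exon junction complex), ordered by value within a group, with filled and named points at an adjusted p under 0.05. The 4 named nuclear exosome adaptors lie below 0, while the readout transcripts spread to both sides, with *Atf3* at 1.24.

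By role, summed levels of nucleases with *Mphosph6* were 568 and 566 CPM in controls and 732 and 745 CPM in *Cnot3*-cKO, with *Dis3* making up most of the difference. Summed NMD levels were 2148 and 1996 CPM against 1770 and 1718 CPM, a difference in which *Smg1* alone took the larger part. Exon junction complex sums were 533 and 597 CPM against 654 and 627 CPM, Ski complex sums were 337 and 365 CPM against 328 and 324 CPM, and ribosome rescue sums were 105 and 109 CPM against 93.0 and 88.9 CPM. No p was computed for these sums, since the exact permutation of 2 and 2 libraries cannot reach a p under 0.05.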

How the data were processed

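Total RNA of sorted ID4-EGFP+ cells was made into TruSeq stranded libraries by the authors, who used STAR for alignment to mm10 and featureCounts with GENCODE M24 for counting. The deposited values were raw counts, 1 table per library. Strand and multi-gene options of the counting are not given in the sources used here. The study describes more biological replicates per group than the 2 analysed here. Groups came from the sample titles and genotype labels.

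Counts were tested with edgeR 4.0.16 in R 4.3.3, after its default expression filter, with TMM scaling and the quasi-likelihood F test of *Cnot3*-cKO against control without covariates. Benjamini-Hochberg adjustment ran over all 23952 tested genes, and adjusted p-values are from this test unless another setting is named, where they ran over the genes tested in that setting. Standard errors and 95% intervals come from the same fit. CPM used TMM-scaled totals, and average log2 CPM a prior count of 2. Depth ranged from 22192964 to 43378493 reads per library, and replicates differed beyond counting noise (chi-square per degree of freedom 23.0 between controls and 7.26 between *Cnot3*-cKO libraries). DESeq2 1.42.0, other scalings, filters, a thinning to equal depth, a length and GC offset, a replicate block and leaving out each library were alternatives. The code was tested on simulated data.

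Coordinates, overlaps and lengths came from GENCODE M21 on GRCm38, promoters from RefSeq. Every transcript of the list was named. Partners and readouts were named at an adjusted p under 0.05, up to 10 per list by smallest p, with genes overlapping a listed gene beside it. *Exosc6*, *Eif4a3* copies, *Rbm8a2*, *Snhg1* and *Snhg5* were named after values were seen. The list and all other gene lists were chosen with earlier results of these data known.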

Additional observations from a re-analysis of the deposited data

How the results depend on the processing

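Calls for *Dis3*, *Eif4a3* and *Upf3b* held under every alternative run. *Smg1* was lost with pan-germ cell scaling and *Exosc10* without control replicate 2 or either *Cnot3*-cKO library. *Upf2*, *Exosc5*, *Dis3l*, *Wdr61* and *Hbs1l*, with adjusted p-values from 0.0626 to 0.0844, each passed under some alternatives. The count of transcripts higher past 2-fold was 0, but 1 (*Upf3b*) with pan-germ cell scaling and 0 to 1 on leaving out libraries (1 without control replicate 1, log2 fold change 1.07, or without *Cnot3*-cKO replicate 1, 1.03). The count lower at an adjusted p under 0.05 was 1, against 0 with pan-germ cell scaling, 4 without a filter, 4 with DESeq2, 2 with the length and GC offset and 1 to 4 on leaving out libraries (4 without control replicate 1 and 2 without control replicate 2). With a replicate block it was 3, adding *Upf2* and *Wdr61*; the numbers do not pair the libraries (correlation of deviations 0.0822 over 15519 genes). The 10 partner calls ranged from 4 to 17 on leaving out libraries (17 without control replicate 1, 16 without control replicate 2, 6 without *Cnot3*-cKO replicate 1, 4 without *Cnot3*-cKO replicate 2). The 3 readout calls were 5 with pan-germ cell scaling and 1 to 3 on leaving out libraries, with 1 without *Cnot3*-cKO replicate 2.

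Scaling moved directions near 0. Pan-germ cell genes shifted the median of all genes by 0.15, and 78.1% of calls at an adjusted p under 0.05 were then higher, beside 54.0% by TMM and 64.4% by library size. The median of the 32 became 0.0011 with upper quartile, 0.027 with library size and 0.11 with pan-germ cell scaling, and was -0.11 to -0.0038 on leaving out libraries. Signs also turned, for transcripts without a call, with pan-germ cell scaling for *Upf1* (0.14), *Smg5* (0.10), *Smg8* (0.016), *Exosc4* (0.058), *Exosc1* (0.019), *Exosc3* (0.12), *Dis3l2* (0.016), *Casc3* (0.077) and *Rbm8a* (0.097). Library size gave *Upf1* 0.051, *Smg5* 0.018, *Exosc3* 0.036 and *Rbm8a* 0.013, upper quartile *Upf1* 0.027 and *Exosc3* 0.010, and a mean count of 50 *Upf1* 0.017 and *Exosc3* 0.0018. *Skiv2l*, *Ttc37* and *Magoh* became -0.0083, -0.0010 and -0.0044 with RLE, -0.025, -0.018 and -0.020 without a filter, and -0.023, -0.015 and -0.019 with DESeq2, and *Skiv2l* -0.029 when thinned. The length and GC offset gave *Upf1* 0.0022, *Ttc37* -0.022 and *Magoh* -0.0032. On leaving out libraries the log2 fold change ranged from -0.20 to 0.17 for *Upf1*, -0.017 to 0.085 for *Smg6*, -0.34 to 0.034 for *Smg9*, -0.23 to 0.026 for *Exosc4*, -0.0036 to 0.11 for *Exosc7*, -0.11 to 0.14 for *Exosc2*, -0.18 to 0.095 for *Exosc3*, -0.15 to 0.15 for *Skiv2l*, -0.10 to 0.10 for *Ttc37*, -0.13 to 0.013 for *Rbm8a* and -0.093 to 0.088 for *Magoh*. The causes were not tested.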
